A study of Mus musculus with 2 samples.

Results

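Type 2 lymphocytes were taken from CD45-sorted cells of mouse oral carcinomas, and they numbered 140 of the 7734 barcodes that passed the filters, 63 in the Momordicine-I library and 77 in the vehicle library. A barcode was kept when it had at least 200 detected genes and at most 10% of its unique molecular identifiers (UMIs, each a counted RNA molecule) from mitochondrial genes. The gate then asked for at least 2 UMIs of Il1rl1 and Gata3 together and for no UMI of Foxp3, of Mcpt8 or Cd200r3, of Ncr1 or Klrb1c, of Cd79a, and of Krt8 or Krt18. It also asked for fewer than 2 UMIs of Trdc and Tcrg-C1 and for at most 1% of UMIs from 5 neutrophil genes (S100a8, S100a9, G0s2, Csf3r and Retnlg). Cells with no UMI of Cd3d, Cd3e or Cd3g are called Cd3-negative (23 in the Momordicine-I library, 27 in the vehicle library), and cells with at least 1 are called Cd3-positive (40 and 50 in the same order). The levels of these gate genes chose the cells, so they are described without being counted as results.

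The tumours grew from MOC2, a mouse oral squamous carcinoma cell line, which was injected with Matrigel under the flank skin of female C57BL/6 mice aged 6 to 7 weeks. Once tumours were palpable, mice were assigned at random, 10 to each arm, to a daily intraperitoneal injection of Momordicine-I at 30 mg/kg, a triterpenoid of bitter melon, or of its vehicle, a mixture of DMSO and Captisol. At the endpoint the tumours of 3 mice per arm were pooled, dissociated, sorted for CD45 and propidium iodide, and made into 1 droplet library per arm with a 3' kit. With 1 library per arm there is no replicate and no test of the treatment: intervals are 95% intervals of the counting error alone, and they hold neither the spread between mice nor the fact that UMIs of 1 cell are not independent.

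Type 2 lymphocytes are the lymphoid source of the cytokines that recruit eosinophils, drive mucus and alternatively activate macrophages. Group 2 innate lymphoid cells (ILC2) carry no antigen receptor and respond to the tissue alarmin IL-33 through ST2, the receptor encoded by Il1rl1, whereas T helper 2 (Th2) cells carry a T cell receptor and CD4. Both depend on the transcription factor GATA3, and both can release interleukin-5, interleukin-13 and the growth factor amphiregulin.

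The Momordicine-I library held 4693 barcodes and 41804810 UMIs, and the vehicle library held 3642 barcodes and 33998491 UMIs. After filtering, 4370 and 3364 barcodes remained, with a median of 5002 UMIs in the Momordicine-I library and 5760 in the vehicle library. The libraries shared 10 barcode sequences, none of them in a gated cell. The doublet caller Scrublet marked 1 barcode in the Momordicine-I library and 2 in the vehicle library at its automatic threshold, too few for it to have worked, so no doublet was removed. Gated cells had a median of 6851 UMIs in the Momordicine-I library and 6771 in the vehicle library.

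The label was set beside genes the gate did not use. Of these, Rora, Areg and Ramp3 were given beforehand as markers of this cell type, so they are not an independent check. Rora, a nuclear receptor needed for ILC2 development, was detected in 48 of 63 gated cells of the Momordicine-I library and 53 of 77 of the vehicle library. At least 3 of Rora, Il7r, Ramp3 and Areg were detected in 41 cells of each library. Among the Cd3-negative cells alone, Rora was detected in 13 of 23 with Momordicine-I and 17 of 27 with vehicle. At least 3 of those genes were detected in 12 and 14 of them, and 13 of the 50 had Il1rl1 without Gata3. Many Cd3-negative cells thus showed few of these type 2 genes. Of the 140 cells, 109 had Il1rl1 and 120 had Gata3, with both in 89. Ptgdr2, which encodes the prostaglandin D2 receptor CRTH2 of type 2 cells, had no UMI in any gated cell of either library. The 23 Momordicine-I and 27 vehicle Cd3-negative cells had no UMI of Cd8a or Cd8b1, and Cd4 was seen in 0 and 4 of them. Among the Cd3-positive cells, 24 of 40 in the Momordicine-I library and 34 of 50 in the vehicle library had Cd4, and 30 and 43 had Trac, the constant gene of the T cell receptor alpha chain. Trac, Trbc1 or Trbc2 was nevertheless detected in 29 of the 50 Cd3-negative cells, most often through a beta-chain gene, since Trac alone was found in 7. Cd3-negative therefore means that no Cd3 UMI was captured, and some of these cells may be T cells. Cd3-positive cells rested on exactly 1 Cd3 UMI in 10 of 90 cases.

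At the edge of the gate, cells just inside with exactly 2 UMIs of Il1rl1 and Gata3 numbered 12 in the Momordicine-I library and 13 in the vehicle library. Their Rora level was 54.6 CPM (counts per 1000000 summed UMIs of these cells) in the Momordicine-I library and 180 CPM in the vehicle library. Cells with 3 or more UMIs had 1147 and 1292 CPM in the same order. Just outside, 34 and 55 cells had exactly 1 such UMI, with Rora at 315 CPM in the Momordicine-I library and 56.5 CPM in the vehicle library. The cells at 2 UMIs were thus closer in Rora to the cells left out than to the rest of the gate.

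Some gated cells also carried RNA of other lineages. Counted over 35 markers of mast cells, basophils, macrophages, dendritic cells, fibroblasts and endothelium plus H2-Aa, H2-Ab1 and H2-Eb1, 10 or more such UMIs were present in 13 of 63 cells of the Momordicine-I library and 8 of 77 of the vehicle library. These cells had a median of 20872 UMIs in the Momordicine-I library and 28888.5 in the vehicle library, with the smallest at 1293 and 1115. Together they held 48.1% and 37.4% of all UMIs of the gated cells. Every gated cell above 15543 UMIs in the Momordicine-I library and above 15097 in the vehicle library was one of them. They weighed most on the Cd3-negative cells of the Momordicine-I library, where 8 of 23 cells held 65.0% of the UMIs, against 2 of 27 cells and 17.4% in the vehicle library. Mast cell or basophil markers reached 10 UMIs in 3 of these cells, all Cd3-negative. These markers were Cma1, Mcpt4, Tpsb2, Tpsab1 and Mrgprb1 of the mast cell list, with Cpa3 and Ms4a2 of the basophil list. The main values below are therefore also given for the cells that are left when these are removed, a choice made after seeing the data. In the text, "without other-lineage cells" means those remaining 50 Momordicine-I and 69 vehicle cells. The cut of 10 UMIs is a count and not a share, so deep cells reach it more easily and the removal also takes out deep cells. For example, a vehicle cell with 41 such UMIs of 61055 was removed and another with 8 of 2561 was kept.

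Type 2 lymphocytes made up a smaller share of the Momordicine-I library than of the vehicle library. They were 1.44% of filtered barcodes (95% exact Clopper-Pearson interval 1.11 to 1.84) with Momordicine-I and 2.29% (1.81 to 2.85) with vehicle, a ratio of 0.630 (0.444 to 0.890). The Cd3-positive cells were 0.915% (0.655 to 1.24) with Momordicine-I and 1.49% (1.11 to 1.95) with vehicle, a ratio of 0.616 (0.396 to 0.952). The Cd3-negative cells were 0.526% (0.334 to 0.789) with Momordicine-I and 0.803% (0.530 to 1.17) with vehicle, a ratio of 0.656 whose interval (0.359 to 1.19) includes 1. Both subsets thus stood in the same direction and at a like ratio. Without other-lineage cells the ratios were 0.558 (0.380 to 0.814) for all, 0.462 (0.226 to 0.911) for Cd3-negative and 0.612 (0.381 to 0.977) for Cd3-positive cells. Taken over barcodes with at most 1% neutrophil-gene UMIs (1598 with Momordicine-I, 1367 with vehicle), the ratio for all type 2 cells was 0.700 (0.494 to 0.989). On that basis it was 0.684 (0.440 to 1.06) for Cd3-positive and 0.729 (0.399 to 1.32) for Cd3-negative cells, and both intervals included 1.

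**Figure D1:**
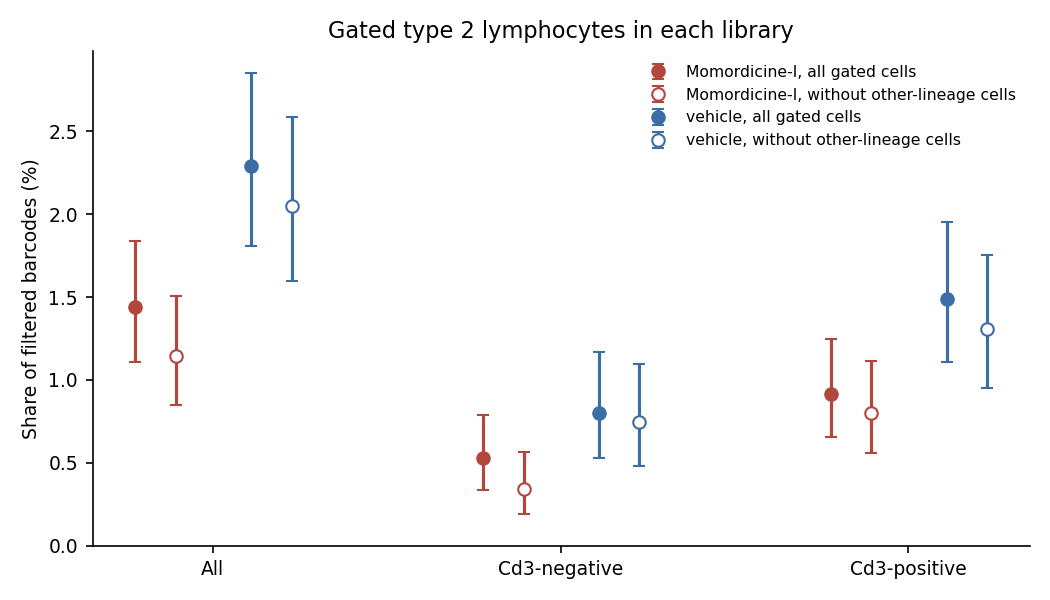
Share of filtered barcodes (%, vertical axis) inside the type 2 gate in the Momordicine-I (red) and vehicle (blue) library, for all, Cd3-negative and Cd3-positive cells. Filled points are all gated cells, open points leave out other-lineage cells, and bars are exact 95% counting intervals. The Momordicine-I point lies below the vehicle point in each set, and the intervals of the libraries overlap for the filled points and, for the open points, in the Cd3-negative and Cd3-positive sets but not in all cells.

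Shares of one library are bound to each other, so other lymphocyte gates were set beside this one. Cells with at least 2 UMIs of Trdc and Tcrg-C1 and a Cd3 UMI (gamma-delta) had a Momordicine-I to vehicle ratio of 1.80 (1.34 to 2.46), and cells with at least 2 UMIs of Ncr1 and Klrb1c and no Cd3 (NK) had 1.24 (0.811 to 1.90). Other T cells were gated on at least 2 Cd3 UMIs and fewer than 2 UMIs of Trdc and Tcrg-C1. They also had to have no UMI of Il1rl1, Gata3, Foxp3, Ncr1 or Klrb1c. Foxp3-positive T cells (Treg) had 0.471 (0.323 to 0.681), other T cells 0.325 (0.228 to 0.458) and B cells 0.290 (0.221 to 0.378). The type 2 ratio lay between these, above the Treg, other T and B ratios and below the NK and gamma-delta ratios. Whether fewer type 2 cells were in the tumours, or more of another cell, cannot be told apart from shares.

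Against the pooled gamma-delta, Treg, NK and other T cells of the same library, many genes of the ILC2 programme stood higher in type 2 lymphocytes. The gate had not used these genes. A gene was called when its CPM ratio was at least 1.5 or at most 1/1.5, among genes with at least 20 UMIs over both sums. Of the 22 genes of an ILC2 identity list, 13 of 18 measured were higher in the Momordicine-I library, where 13.9% of all measured genes were higher and 20.1% lower, and 15 of 20 were higher in the vehicle library, where 14.2% were higher and 19.9% lower. The median log2 ratio of the list was 1.10 and 1.37 in these libraries, against -0.06 and -0.10 over all genes. Receptors for neuropeptides and lipid mediators were also mostly higher, 9 of 14 with Momordicine-I and 10 of 16 with vehicle. The gate used Il1rl1 and Gata3, and genes that vary with them among lymphocytes are part of what it selects. The other T cells were chosen to lack both genes, so this contrast is in part set by the gates.

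Rora stood at 768 CPM in the Momordicine-I and 1315 in the vehicle library among Cd3-negative cells, and at 865 and 947 among Cd3-positive cells. Gamma-delta T cells had Rora at 892 and 730.4 CPM and Treg cells at 641 and 727 CPM in the same libraries, so this gene separated type 2 cells from NK (183 and 263), other T (218 and 77.6) and B cells (0 and 1.76) more than from those. Rora was detected in 62.3% of Momordicine-I and 60.6% of vehicle type 2 cells thinned to 2000 UMIs (76.2% and 68.8% unthinned). In the B cell gate, which should lack it, the share was 0% and 0.490% thinned (0% and 0.966% unthinned, at a median of 4903.5 and 6028 UMIs).

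Areg, which encodes amphiregulin, was 294 CPM in type 2 cells and 71.8 CPM in other lymphocytes with Momordicine-I, a ratio of 4.10 (3.35 to 5.01), and 331 and 123 CPM with vehicle, a ratio of 2.69 (2.27 to 3.17). Treg cells were the other gate with much Areg, at 190.5 and 331 CPM. Ramp3, a co-receptor subunit for calcitonin-family peptides, was 2.16 times as high in type 2 cells with Momordicine-I and 5.50 times with vehicle; it was also present in gamma-delta and other T cells of the Momordicine-I library, at 319 and 326 CPM.

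By the naming rule 12 genes stood farthest above the other lymphocytes in both libraries. They were Hs3st1, Hdc, Prnp, Ptgir, Ctla2a, Socs2, Ptpn13, Zcchc10, Il10ra, Tnfsf11, Areg and Ipmk. Hdc (chr2:126593667-126619299, minus strand, GRCm38/mm10), which encodes the enzyme that makes histamine, was 723 CPM in type 2 cells and 45.4 CPM in other lymphocytes with Momordicine-I, a ratio of 15.9 (13.1 to 19.4). In the vehicle library Hdc was 815 and 65.0 CPM, a ratio of 12.5 (10.7 to 14.8). Ptgir, the prostacyclin receptor, was 23.3 times as high with Momordicine-I and 8.17 times with vehicle, from 32 and 42 UMIs in type 2 cells. Tnfsf11, which encodes the cytokine RANKL, was 3.51 times as high with Momordicine-I and 13.0 times with vehicle. Socs2, an inhibitor of cytokine signalling, stood at 3.62 and 4.04 times, Il10ra, the interleukin-10 receptor, at 3.75 and 3.13, Ctla2a, a cathepsin inhibitor, at 3.26 and 3.55, and Prnp, the prion protein, at 7.30 and 7.35 times. For all 12 genes the ratio was also above 1 in both libraries without other-lineage cells. The other lymphocytes differ in make-up between the libraries, so each ratio holds for its own library. They also include the other T cells, which were chosen to lack Il1rl1 and Gata3.

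Hs3st1 (chr5:39613935-39755475, minus strand), a heparan sulfate sulfotransferase, had 37 UMIs in type 2 cells and 8 in other lymphocytes with Momordicine-I, and 82 and 3 with vehicle. It was not restricted to type 2 cells, since the B cell gate had 27.6 CPM with Momordicine-I and 31.1 CPM with vehicle. Calca (chr7:114631478-114636357, minus strand), the gene of calcitonin and the neuropeptide CGRP, was outside the naming rule because single cells held much of it, and is given as a listed gene. It had 155 UMIs in type 2 cells and 8 in other lymphocytes with Momordicine-I, and 49 and 18 with vehicle.

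**Figure D2:**
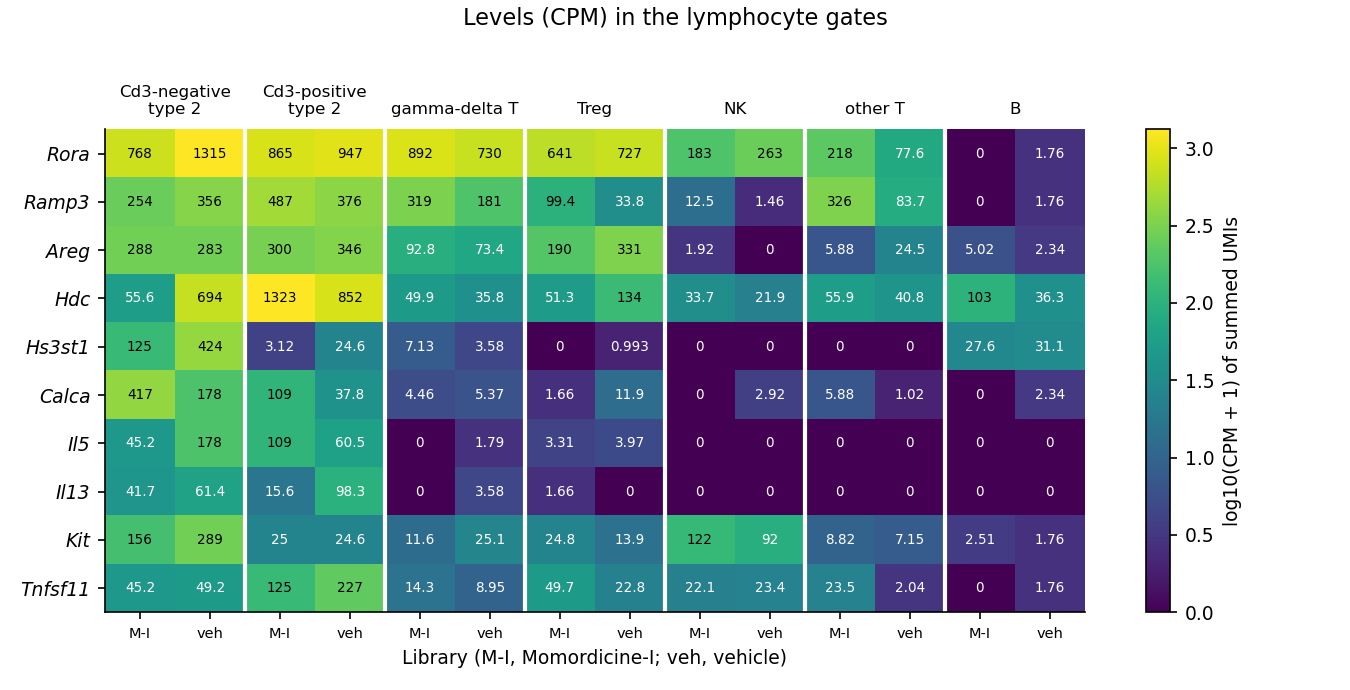
Levels in CPM of summed UMIs (numbers in the cells; colour is log10(CPM + 1)) of selected genes in Cd3-negative and Cd3-positive type 2 cells and in the gamma-delta T, Treg, NK, other T and B gates. In each gate the Momordicine-I library is left of the vehicle library. Il5 and Il13 are at or near 0 outside the type 2 columns, whereas Rora, Ramp3 and Areg are shared with other T cell gates.

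The Cd3 split separated the gated cells along T cell genes and along Kit, Calca and Hs3st1. The split used Cd3d, Cd3e and Cd3g, and genes that vary with them follow from it. Of the 20 genes of a T cell list, 15 of 15 measured were lower in Cd3-negative cells of the Momordicine-I library and 14 of 19 in the vehicle library. Over all genes, 25.9% were higher and 18.4% lower with Momordicine-I, and 15.6% higher and 27.8% lower with vehicle, and 3.65% of genes were higher and 4.65% lower in both libraries. The median log2 ratio of the T cell list was -3.93 with Momordicine-I and -1.24 with vehicle.

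Genes lower in Cd3-negative cells in both libraries included Cd2 and Cd28, a T cell adhesion molecule and a co-stimulatory receptor. Cd2 had a Cd3-negative over Cd3-positive ratio of 0.0306 (0.00622 to 0.0919) with Momordicine-I and 0.123 (0.0446 to 0.275) with vehicle, and Cd28 had 0.0514 (0.0185 to 0.115) and 0.185 (0.0972 to 0.323). Gimap4, a lymphocyte GTPase, stood at 0.0285 and 0.0439, Cd6 at 0.0445 and 0.183, Maf, a transcription factor of Th2 and other helper cells, at 0.229 and 0.229, and Tnfrsf9, the co-stimulatory receptor 4-1BB, at 0.171 and 0.327. Ifi27l2a, an interferon-induced gene, was at 0.163 and 0.299. Cd4 had 0 UMIs in Cd3-negative cells and 76 in Cd3-positive cells with Momordicine-I, and 6 and 92 with vehicle. Cd5 had 0 and 43 UMIs with Momordicine-I and 2 and 69 with vehicle, and Cd247, the zeta chain of the T cell receptor complex, had 1 and 33 with Momordicine-I and 0 and 43 with vehicle.

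In the other direction, Kit, the stem cell factor receptor, had 45 UMIs in Cd3-negative and 8 in Cd3-positive cells with Momordicine-I, a CPM ratio of 6.26 (2.92 to 15.4), and 47 and 13 UMIs with vehicle, a ratio of 11.8 (6.26 to 23.7). Kit is also a mast cell gene, and mast cell or basophil markers reached 10 UMIs in 3 Cd3-negative cells. Without other-lineage cells, these 3 among them, the Kit ratios were 9.37 and 30.3. Kit was detected in 26 of 50 Cd3-negative and 10 of 90 Cd3-positive cells. Calca stood at 3.82 (2.60 to 5.73) with Momordicine-I and 4.71 (2.58 to 8.79) with vehicle. Hs3st1 had 36 UMIs in Cd3-negative cells and 1 in Cd3-positive cells with Momordicine-I, and 69 and 13 with vehicle.

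By the naming rule, Lpcat2, Egr1, Serp1, Nfkb1, Lilr4b, Lilrb4a, Cdkn1a, Med13l and Gnas were higher in Cd3-negative cells of both libraries. Lpcat2, an acyltransferase of the synthesis of platelet-activating factor, stood at 3.45 (1.65 to 7.89) with Momordicine-I and 3.75 (1.67 to 8.57) with vehicle. The receptor genes Lilr4b and Lilrb4a stood at 1.43 and 1.38 with Momordicine-I and at 3.17 and 1.99 with vehicle. They are near-identical copies, so reads may be split between them. Egr1, an early response transcription factor, was at 1.60 and 3.23, and Cdkn1a, the cell cycle inhibitor p21, at 2.43 and 1.39. Without other-lineage cells these ratios were above 1 in both libraries, for all 9 genes, with Cdkn1a at 5.68 and 1.91 and Nfkb1, a subunit of NF-kB, at 3.19 and 1.10. Med13l turned to a log2 ratio of -1.17 in the vehicle library when cells were thinned to 2000 UMIs.

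**Figure D3:**
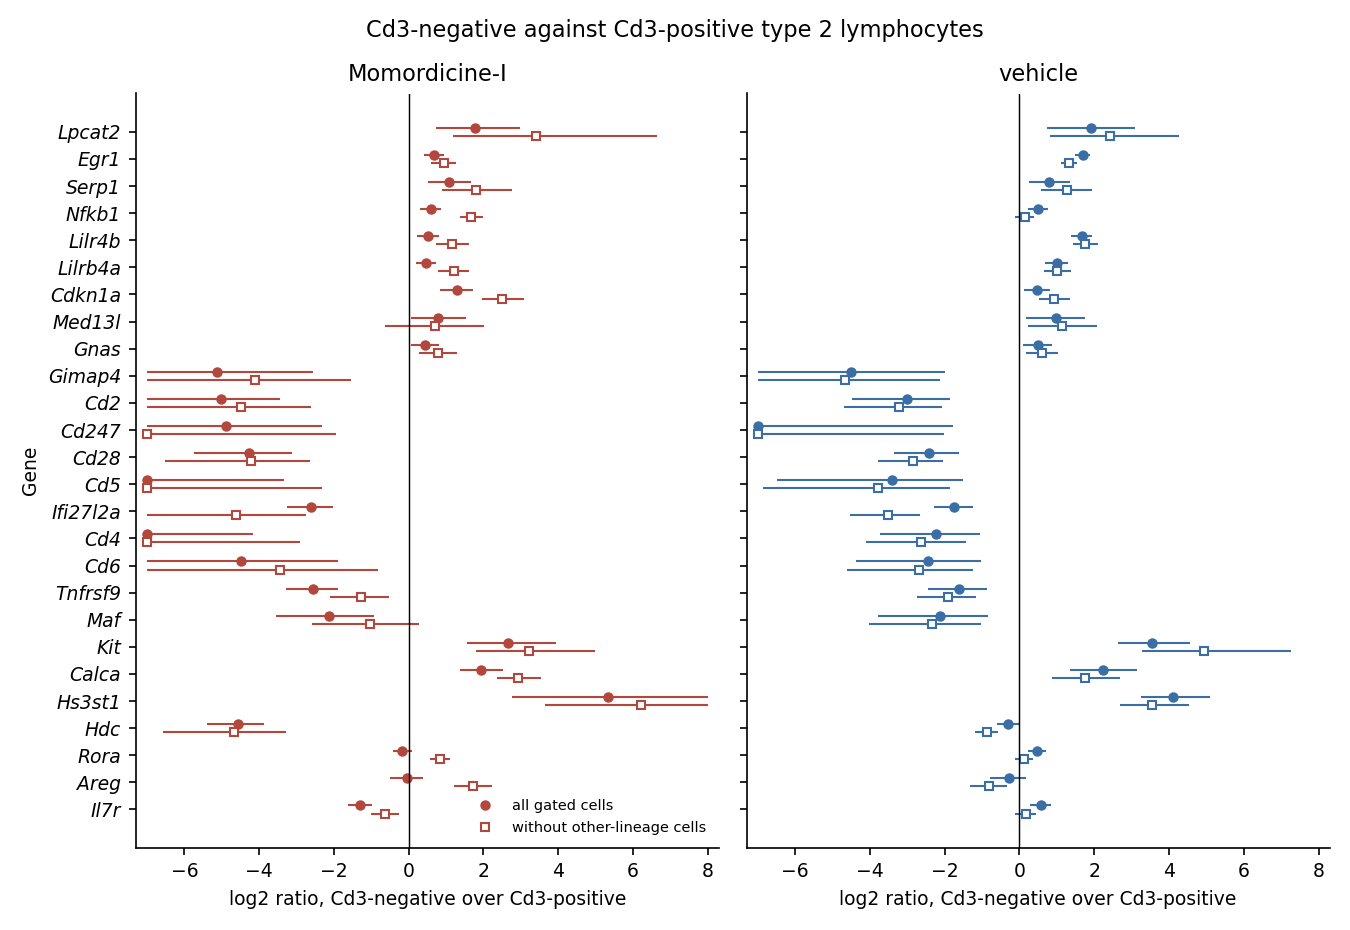
Log2 ratio of CPM in Cd3-negative over Cd3-positive type 2 cells (horizontal axis) for named and listed genes in the Momordicine-I (left) and vehicle (right) library, with 95% counting intervals. Filled circles are all gated cells and open squares leave out other-lineage cells; genes with no UMI in the Cd3-negative sum are drawn at the left edge. The T cell genes lie left of 0 and Kit, Calca and Hs3st1 right of 0 in both libraries, while Hdc lies far left with Momordicine-I and near 0 with vehicle.

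Between treatments, many immediate early genes stood lower with Momordicine-I. These are the transcription factors and feedback regulators that are switched on rapidly by stimulation, tissue dissociation included. Of a list of 20, 19 were measured over all gated cells, and 9 of them were at least 1.5-fold lower with Momordicine-I, against 13.7% of all measured genes, while 1 (Nr4a3) was higher, against 13.3% of all genes. As a log2 ratio the median of the list was -0.57, against 0.01 over all genes. Without other-lineage cells 10 of 18 were lower (13.3% of all genes) and 1 was higher (13.4% of all genes), with a median of -0.71.

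Fosb (chr7:19302696-19310051, minus strand), a partner of JUN in the transcription factor AP-1, had 1180.4 CPM in type 2 cells with Momordicine-I and 2511 CPM with vehicle, a ratio of 0.470 (0.430 to 0.513). It was detected in 52 of 63 Momordicine-I and 70 of 77 vehicle cells. Junb, another AP-1 subunit, had 2364 and 4375 CPM, a ratio of 0.540 (0.507 to 0.576). Zfp36, which destabilises cytokine mRNAs, stood at 0.530 (0.477 to 0.588). These genes were lower across many cells, and no cell held more than 25% of either sum.

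Outside that list the genes named lowest with Momordicine-I were Tnfaip3, Nfkbia, Cd69, Sgk1, Uhrf2, Hes1 and Cxcl2. The NF-kB and stress list as a whole had 3 of 17 genes lower and 1 higher, near the 13.7% and 13.3% of all genes. Tnfaip3, the NF-kB inhibitor A20, had 784 CPM with Momordicine-I and 1623 CPM with vehicle, a ratio of 0.483 (0.433 to 0.538), and Nfkbia, which encodes the inhibitor IkB alpha, stood at 0.544 (0.507 to 0.584). Cd69, an early activation and tissue retention marker, stood at 0.508 (0.437 to 0.590). Sgk1, a kinase induced by steroid and salt signals, stood at 0.313 (0.186 to 0.507) and Uhrf2, a ubiquitin ligase, at 0.435 (0.342 to 0.549). Hes1, a target of Notch signalling, had 23 UMIs with Momordicine-I and 130 with vehicle, a ratio of 0.201 (0.123 to 0.315). Without other-lineage cells the ratios were 0.582 for Tnfaip3, 0.637 for Nfkbia, 0.548 for Cd69, 0.289 for Sgk1, 0.413 for Uhrf2 and 0.213 for Hes1. Cxcl2, a neutrophil-attracting chemokine, had 695 CPM with Momordicine-I and 1329.7 CPM with vehicle, a ratio of 0.523 (0.465 to 0.587). The B cell gate had Cxcl2 at 1059.5 CPM with Momordicine-I and 874 CPM with vehicle, levels of the same order as in type 2 cells.

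The list median stood farther from 0 in the Cd3-negative than in the Cd3-positive cells. Among the Cd3-negative cells, 14 of 18 measured immediate early genes were lower with Momordicine-I and 0 higher, where 18.2% of all measured genes were lower and 33.2% higher, and the list median was -1.31 against 0.20 over all genes. Without other-lineage cells, 13 of 18 were lower (16.8% of all genes) and 2, Dusp2 and Nr4a3, were higher (24.6% of all genes), with a median of -1.04. Among the Cd3-positive cells 3 of 19 were lower and 2, Atf3 and Nr4a3, higher, where 20.6% of all genes were lower and 12.5% higher, with a median of -0.29. Without other-lineage cells 9 of 18 were lower (15.4% of all genes) and 2 higher (13.6% of all genes), with a median of -0.59. The difference between the Cd3 sets was not tested.

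In single Cd3-negative cells, Fosb ranged up to 12374 CPM around a median of 515 with Momordicine-I, and up to 17708 CPM around a median of 3635 with vehicle. The ranges overlapped, since both started at 0. Summed, Fosb had 1021 CPM with Momordicine-I and 4608 with vehicle, a ratio of 0.222 (0.193 to 0.254), which was 0.286 (0.239 to 0.340) without other-lineage cells. Fos stood at 0.274 (0.242 to 0.310) and 0.297 without those cells, Ier2 at 0.288 and 0.305, and Klf6 at 0.297 and 0.307. For Junb the ratio was 0.276 in all and 0.489 in the remaining cells, for Jund 0.304 and 0.591, for Tnfaip3 0.208 and 0.443, and for Cd69 0.253 and 0.430. Hes1 stood at 0.124 (0.0725 to 0.203) and 0.249, and Zdhhc18, a palmitoyltransferase, at 0.136 and 0.348. All 10 genes named lowest in Cd3-negative cells were below 1 in both sets of cells, and removing the other-lineage cells brought Junb, Jund, Tnfaip3, Cd69, Hes1 and Zdhhc18 closer to 1.

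In Cd3-positive cells the single-cell median of Fosb was 1019 CPM with Momordicine-I and 1639 CPM with vehicle, and the summed ratio was 0.709 (0.632 to 0.796), or 0.526 without other-lineage cells. Junb stood at 0.775 and 0.628, Fos at 0.819 and 0.605, Tnfaip3 at 0.758 and 0.677, and Cd69 at 0.737 and 0.614, so that here the removal moved the ratios away from 1. Hes1 had 3 UMIs with Momordicine-I and 39 with vehicle.

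**Figure D4:**
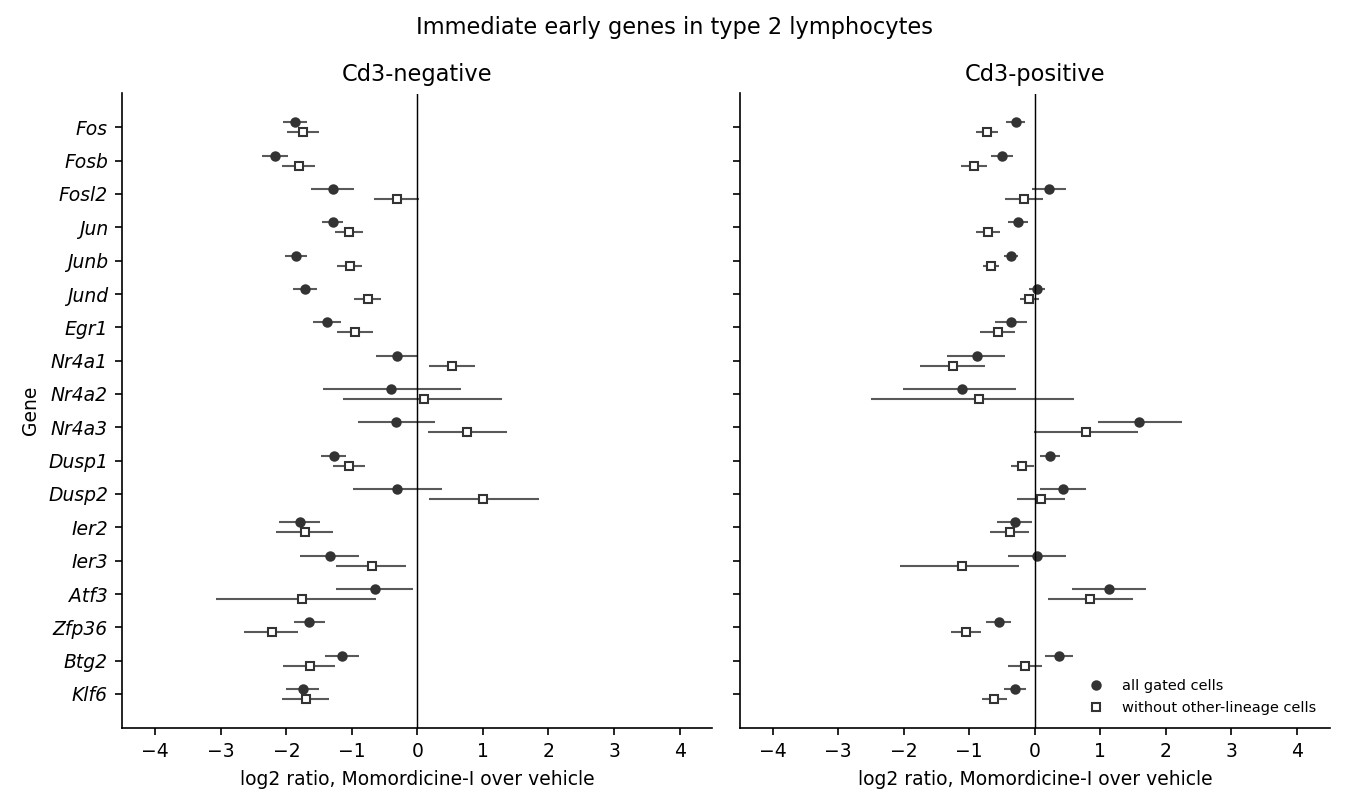
Log2 ratio of CPM, Momordicine-I over vehicle (horizontal axis), for 18 immediate early genes in Cd3-negative (left) and Cd3-positive (right) type 2 cells, with 95% counting intervals. Filled circles are all gated cells and open squares leave out other-lineage cells. Most filled Cd3-negative points lie below -1, with Nr4a1, Nr4a2, Nr4a3 and Dusp2 nearer 0, and most Cd3-positive points lie between -1 and 1.

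In the other gates the median of the same list was between -0.31 and 0.30, a range that also holds the Cd3-positive type 2 value of -0.29. Without other-lineage cells the Cd3-positive median, given above, lay below this range. Cells with other-lineage RNA were not removed from the other gates. The difference between gates was not tested. The median log2 ratio of Momordicine-I over vehicle was 0.30 in gamma-delta, -0.31 in Treg, -0.14 in NK, -0.14 in other T and 0.21 in B cells. Over all measured genes the medians in these gates were 0.03, -0.08, -0.04, -0.02 and 0.08. Within the vehicle library the list was higher in Cd3-negative than in Cd3-positive type 2 cells, 14 of 19 genes (15.6% of all genes) with a median of 1.13, whereas in the Momordicine-I library 2 of 18 were higher (25.9% of all genes) and the median was -0.33. Without other-lineage cells these medians were 0.98 for vehicle and -0.14 for Momordicine-I. These contrasts share the same Cd3-negative sums, so they are not independent of the treatment ratios.

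Among the genes highest with Momordicine-I over all gated cells, several belonged to antigen-presenting cells. H2-Eb1, a chain of MHC class II, had 2778 CPM with Momordicine-I and 1135 with vehicle, a ratio of 2.45 (2.25 to 2.67), and Cd74, the invariant chain of MHC class II, stood at 2.32 (2.20 to 2.46). Without other-lineage cells, which were defined in part by H2-Aa, H2-Ab1 and H2-Eb1, H2-Eb1 had 5 and 11 UMIs and Cd74 stood at 1.06 (0.715 to 1.55). Ms4a6c, a monocyte gene, stood likewise at 2.78 in all and 0.824 in the remaining cells, as did Ahr, the aryl hydrocarbon receptor, at 2.48 and 0.955. Irf5 had 77 and 21 UMIs in all cells and 5 and 2 in the remaining cells, and Klrk1, the receptor NKG2D, had 71 and 20 in all and 3 and 1 in the remaining cells. In both libraries most UMIs of these 6 genes lay in the cells with other-lineage RNA. The MHC class II list was higher in 8 of 10 genes (13.3% of all genes), median 0.90, in all cells. It was higher in 10 of 10 in Cd3-negative cells (33.2% of all genes). In Cd3-positive cells 1 of 10 was higher and 4 were lower (12.5% and 20.6% of all genes). Without other-lineage cells 3 of the 10 were measured and none was called.

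Of the 10 genes named highest, Cd83, Tmem176b and Palld were at least 1.5-fold higher on more than a few UMIs without those cells. Cd83, an activation marker that stabilises MHC class II and CD86, had 128 CPM with Momordicine-I and 26.0 with vehicle, a ratio of 4.93 (2.92 to 8.75), and 3.63 (1.92 to 7.26) in the remaining cells. Tmem176b, a membrane channel protein, stood at 3.36 (2.09 to 5.59) and 2.17 (1.18 to 4.08). Palld, an actin-binding protein, stood at 4.41 (1.98 to 11.1) from 31 and 8 UMIs, and at 4.29 in the remaining cells. S100a6, a calcium-binding protein, stood at 2.27 in all and 1.24 (1.06 to 1.46) in the remaining cells.

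In Cd3-negative cells the 10 genes named highest were Vdac3, Ndufc2, Ctss, Tmem109, Grn, Chmp2a, Tm9sf4, Ifnar2, Psma1 and Aurkaip1, in a comparison in which 33.2% of all measured genes were higher. Vdac3, a mitochondrial pore, had 38 UMIs with Momordicine-I and 1 with vehicle, a ratio of 21.5 (3.63 to 871), and Ndufc2, a subunit of respiratory complex I, had 44 and 5. Ctss, the lysosomal protease cathepsin S of antigen-presenting cells, stood at 2.59 (1.91 to 3.56). Ifnar2, a chain of the type I interferon receptor, had 35 and 4 UMIs, a ratio of 4.95 (1.77 to 19.2). In the cells left without other-lineage RNA all 10 remained above 1, on few UMIs: Vdac3 had 8 and 1, Ndufc2 18 and 1, Grn had 3 and 2, and Ctss and Ifnar2 had ratios of 1.78 (0.688 to 4.78) and 2.67 (0.715 to 12.1).

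In Cd3-positive cells the genes named highest with Momordicine-I were Ddit4, Nr4a3, Nt5e, Zfp644, Tmem176a and Pag1. Ddit4, a stress-induced inhibitor of mTOR signalling, had 175 CPM with Momordicine-I and 54.8 CPM with vehicle, a ratio of 3.19 (2.00 to 5.18). Nt5e, which encodes the adenosine-producing enzyme CD73, had 209 and 71.8 CPM, a ratio of 2.91 (1.93 to 4.46). Nr4a3, a nuclear receptor induced by antigen receptor signals, stood at 3.01 (1.95 to 4.72). Zfp644, a zinc finger gene, stood at 3.08, Tmem176a at 3.15 and Pag1, an adaptor that restrains Src kinases, at 3.30. Without other-lineage cells the ratios were 2.72 for Ddit4, 2.29 for Nt5e, 1.71 for Nr4a3, 2.92 for Zfp644, 3.48 for Tmem176a and 3.83 for Pag1.

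The genes named lowest in Cd3-positive cells were Il6ra, Slain1, Il1r2, Phlda1, Ubac2 and Psap. Il6ra (chr3:89864059-89913196, minus strand), the interleukin-6 receptor, had 2 UMIs with Momordicine-I, in 1 cell, and 48 with vehicle, in 17 cells, a ratio of 0.0688 (0.00810 to 0.262). Without other-lineage cells it had 0 UMIs with Momordicine-I and 22 with vehicle. Slain1, a microtubule protein, had 2 and 31 UMIs, a ratio of 0.107 (0.0124 to 0.419). Il1r2, the decoy receptor for interleukin-1, stood at 0.367 (0.268 to 0.495), and Phlda1 at 0.413 (0.280 to 0.595). Without other-lineage cells Il1r2 stood at 0.578, Phlda1 at 0.261, Ubac2 at 0.464 and Psap, a lysosomal protein precursor, at 1.11 (0.715 to 1.72), so that the Psap interval included 1.

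Of the ILC2 identity list, 1 of 20 genes was higher and 6 were lower with Momordicine-I over all gated cells, where 13.3% of all genes were higher and 13.7% lower. The list median was -0.16. Rora had 819 CPM with Momordicine-I and 1033 CPM with vehicle, a ratio of 0.792 (0.705 to 0.889), which was 1.02 (0.906 to 1.15) without other-lineage cells. Il7r, the interleukin-7 receptor on which ILC2 depend, stood at 1.01 (0.881 to 1.15), Ramp3 at 1.01 (0.844 to 1.22), Areg at 0.889 (0.727 to 1.09) and Il2ra, the interleukin-2 receptor alpha chain, at 0.906 (0.759 to 1.08). For these 4 genes the counting interval included 1. Arg1, which encodes arginase-1 of ILC2 and macrophages, had 12 UMIs in 8 cells with Momordicine-I and 78 in 13 cells with vehicle, 51.3% of the vehicle UMIs in 1 cell. Hs3st1 stood at 0.513 (0.338 to 0.765), Il17rb, the interleukin-25 receptor, at 0.477 (0.229 to 0.938), and Icos, a co-stimulatory receptor, at 1.31 (1.03 to 1.66).

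Within the Cd3-negative cells the same genes depended on the other-lineage cells. The ILC2 identity list had 0 of 18 higher and 9 lower, median -0.62, in all, and 7 of 18 higher and 4 lower, median 0.30, in the remaining cells. The shares over all genes were 33.2% higher and 18.2% lower in all Cd3-negative cells, and 24.6% and 16.8% in the remaining ones, so the count lower in the remaining cells is near that share. The cytokine receptor list had 9 of 16 lower and 1 higher in all and 6 lower and 4 higher in the remaining cells, with medians of -0.92 and -0.38. Rora stood at 0.584 (0.482 to 0.708) in all and 1.37 (1.13 to 1.66) in the remaining cells, Il2ra at 0.479 and 1.12, Il7r at 0.424 and 0.720, and Areg at 1.02 and 2.41. Il17rb was low in both, at 0.165 (0.0600 to 0.394) and 0.389 (0.142 to 0.931). In Cd3-positive cells Rora stood at 0.913 (0.786 to 1.06), Il7r at 1.56 (1.33 to 1.83) and Icos at 1.80 (1.34 to 2.42), and without other-lineage cells at 0.840, 1.25 and 1.59. Areg was 0.866 in all and 0.417 (0.302 to 0.568) in the remaining cells. It was detected in 10 of 35 remaining cells with Momordicine-I and 12 of 44 with vehicle. Of the 180 vehicle UMIs, single cells held 55 and 49.

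Transcripts of the type 2 cytokines were found in few cells. At least 1 UMI of Il4, Il5 or Il13 was detected in 13 of 63 cells with Momordicine-I and in 25 of 77 with vehicle. Among Cd3-negative cells it was 7 of 23 with Momordicine-I and 5 of 27 with vehicle, and among Cd3-positive cells 6 of 40 with Momordicine-I and 20 of 50 with vehicle. As shares, the Cd3-positive values were 15.0% (5.71 to 29.8) with Momordicine-I and 40.0% (26.4 to 54.8) with vehicle, and the Cd3-negative values 30.4% (13.2 to 52.9) and 18.5% (6.30 to 38.1). The Cd3-positive share was the lower one with Momordicine-I, where 6 of 35 and 19 of 44 cells were positive without other-lineage cells. These shares are given unthinned, and detection of 1 UMI depends on depth. Fewer than 2000 UMIs were held by 6 of 40 Cd3-positive cells with Momordicine-I and 1 of 50 with vehicle. Without other-lineage cells the Cd3-positive medians were 5544 UMIs with Momordicine-I and 6810 with vehicle. No Il5 or Il13 UMI was found in the NK, other T and B gates of either library. The largest such count elsewhere was 4 UMIs of Il5, in the vehicle Treg cells. Il4 was less specific: it was found in 1, 1, 0, 0 and 0 cells of the gamma-delta, Treg, NK, other T and B gates with Momordicine-I and in 3, 1, 0, 2 and 3 cells with vehicle. In Cd3-positive type 2 cells Il4 was found in 1 cell with Momordicine-I and 9 with vehicle.

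Il13 had 5 UMIs in 2 Cd3-positive cells with Momordicine-I and 52 in 7 with vehicle, of which 1 cell held 36, a ratio of 0.159 (0.0495 to 0.395). In Cd3-negative cells Il13 had 12 UMIs in 4 cells with Momordicine-I and 10 in 1 cell with vehicle. Il5, the eosinophil growth factor, had 35 UMIs in 4 Cd3-positive cells with Momordicine-I, 25 of them in 1 cell, and 32 in 9 cells with vehicle. In Cd3-negative cells Il5 had 13 UMIs in 3 cells with Momordicine-I and 29 in 3 cells with vehicle, 27 of them in 1 cell. In each of these sums except Il5 in vehicle Cd3-positive cells, 1 cell held at least 46.2% of the UMIs. Il4 had 3 UMIs in 3 cells with Momordicine-I and 16 in 11 cells with vehicle, at most 2 per cell. Csf2, which encodes GM-CSF, had 32 and 27 UMIs in Cd3-negative cells and 8 and 34 in Cd3-positive cells with Momordicine-I and vehicle.

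Of the 28 listed cytokines and secreted factors, 18 were measured over all gated cells, 2 were higher, Calca and Ccl5, and 10 lower (13.3% and 13.7% of all genes), and the median was -0.66. Some of the lower genes rested on other-lineage cells: Il6 had 5 and 68 UMIs in all and 4 and 3 in the remaining cells, and Tnf stood at 0.373 and 1.08. Tnfsf11 stood at 0.471 (0.335 to 0.654) in all and 0.521 (0.355 to 0.753) in the remaining cells. Without other-lineage cells 2 of 15 listed genes were higher, 6 were lower (13.4% and 13.3% of all genes), and the median was -0.15.

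Calca went the other way. It had 155 UMIs with Momordicine-I, in 16 cells, and 49 with vehicle, in 13 cells, a ratio of 3.60 (2.59 to 5.07), and 4.32 without other-lineage cells. The ratio was 2.34 (1.55 to 3.64) in Cd3-negative and 2.89 (1.62 to 5.28) in Cd3-positive cells. Counts of 10 or more per cell were reached by 5 Momordicine-I cells, the highest with 43, and by no vehicle cell, the highest with 7. A Calca UMI was found in 25.4% of Momordicine-I and 16.9% of vehicle cells (18.9% and 11.3% when thinned to 2000 UMIs), against 0% and 1.93% in the B cell gate (0% in both when thinned, at a median of 4903.5 and 6028 UMIs). With at most 5% mitochondrial UMIs in place of 10%, the log2 ratio of Calca in Cd3-positive cells was -2.17, so its direction there depended on this filter. Ccl5, a T cell and monocyte chemokine, had 42 UMIs in 6 cells with Momordicine-I and 9 in 2 with vehicle.

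Hdc, which is also on the neutrophil marker list used here, was carried by a minority of cells. Whether neutrophil RNA added to its counts was not tested. Counts of 10 or more UMIs were found in 9 of 63 cells with Momordicine-I and 14 of 77 with vehicle, up to 103 and 118 UMIs per cell. Of these cells 6 with Momordicine-I and 11 with vehicle had Cd4, and mast cell or basophil markers reached 2 UMIs in 0 and 2 of them. Such cells were rarer in the other gates, with 0 to 3 per gate and library. At least 1 Hdc UMI was found in 42.9% and 45.5% of type 2 cells (20.8% and 31.0% when thinned to 2000 UMIs), against 15.4% and 16.4% in the B cell gate (7.79% and 5.39% thinned). In the gamma-delta, Treg and NK gates the thinned shares were 6.21%, 6.38% and 6.56% with Momordicine-I and 12.7%, 15.4% and 10.5% with vehicle, so with vehicle the B cell gate gives a lower background than these. By treatment, Hdc had 16 UMIs in Cd3-negative cells with Momordicine-I and 113 with vehicle, a ratio of 0.0800 (0.0442 to 0.136). In the vehicle library 3 of these cells held 13, 43 and 39 of the UMIs. They had no UMI of Gata3, Rora or Il7r, so the ratio rests on 3 cells that lack these type 2 genes. Of these 3 cells, 2 had 2 or more UMIs of the mast cell or basophil markers. None of the 3 had a UMI of the mast cell genes Cma1, Tpsb2, Tpsab1 or Mrgprb1. The cell with 13 Hdc UMIs had 0.992% of its UMIs from the neutrophil genes of the gate, near the limit of 1%. In Cd3-positive cells Hdc had 424 and 451 UMIs, a ratio of 1.55 (1.36 to 1.78), which was 0.675 (0.571 to 0.796) without other-lineage cells. Of the 9 Momordicine-I cells with 10 or more Hdc UMIs, 3 were other-lineage cells. With at most 5% mitochondrial UMIs its log2 ratio in Cd3-positive cells was -0.32.

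**Figure D5:**
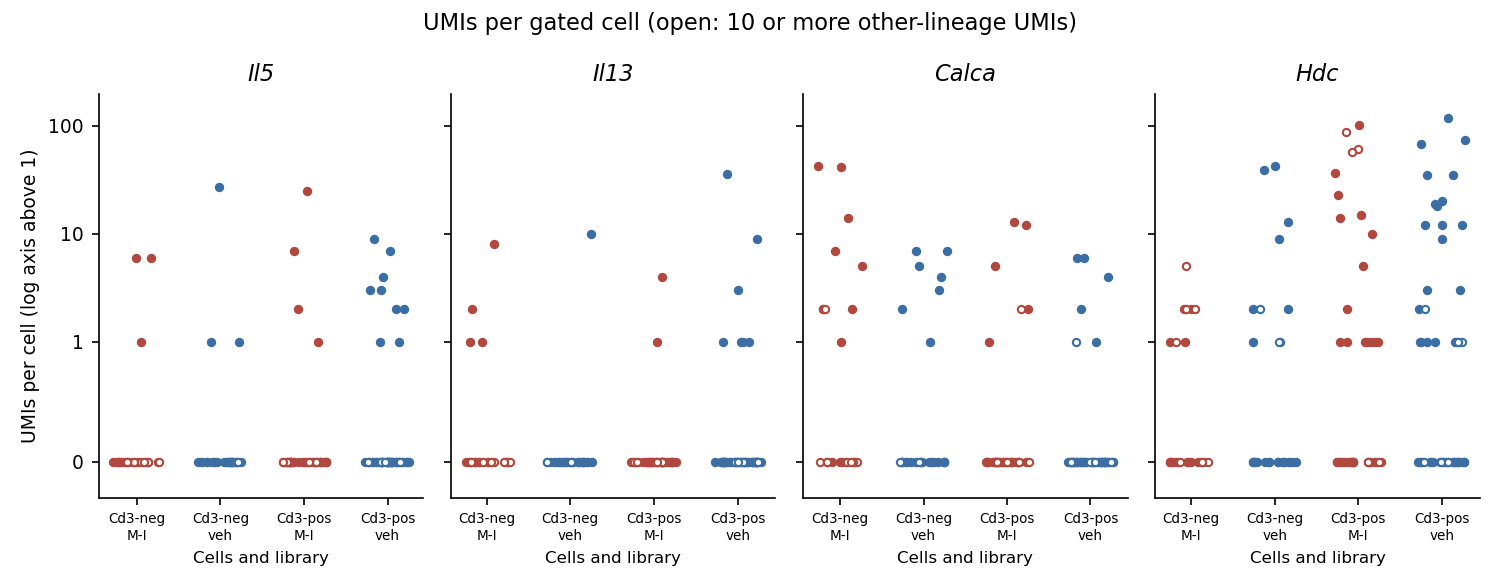
UMIs of Il5, Il13, Calca and Hdc in each gated cell (1 point per cell; the vertical axis is linear up to 1 UMI and logarithmic above), for Cd3-negative and Cd3-positive cells with Momordicine-I (red) and vehicle (blue). Open points are other-lineage cells. Most cells are at 0; Calca reaches 43 UMIs with Momordicine-I and 7 with vehicle, and Hdc exceeds 10 UMIs in Cd3-positive cells of both libraries.

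Interferon-stimulated genes showed no common direction over all gated cells, with 6 of 21 higher and 5 lower (13.3% and 13.7% of all genes) and a median of 0.00. Without other-lineage cells 8 of 16 were lower with Momordicine-I and 0 higher (13.3% and 13.4% of all genes), with a median of -0.62. In the Cd3-negative cells 6 of 10 were higher and 1 lower (33.2% and 18.2% of all genes), with a median of 0.65. That median turned negative under 5 alternatives, -0.41 on 3 genes without other-lineage cells among them. In the Cd3-positive cells 6 of 16 were lower in all (20.6% of all genes; median -0.17) and 8 of 11 in the remaining cells (15.4% of all genes; median -1.11). In Cd3-positive cells, all and then without other-lineage cells, Ifi47, an interferon-induced GTPase, stood at 0.295 and 0.214, Slfn5 at 0.436 and 0.199, and Ifi27l2a at 0.767 and 0.520 (0.411 to 0.653).

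Further lists over all gated cells are given as genes higher and genes lower of genes measured, with the median log2 ratio of Momordicine-I over vehicle, and are to be read against 13.3% higher and 13.7% lower over all genes. They were lymphoid transcription factors 2 and 7 of 26 (median -0.20), checkpoint and regulatory genes 3 and 0 of 11 (median 0.15), co-stimulatory genes 1 and 5 of 14 (median -0.08), NF-kB and stress genes 1 and 3 of 17 (median -0.22). For tissue and survival programmes they were residency and migration genes 5 and 4 of 24 (median 0.04), survival genes 2 and 1 of 13 (median -0.03), MHC class I genes 0 and 1 of 14 (median -0.12), glycolysis and arginine genes 0 and 4 of 19 (median -0.06). For the others they were lipid genes 4 and 2 of 11 (median -0.11), neuropeptide and lipid receptors 2 and 0 of 11 (median 0.02), cytokine receptors 1 and 3 of 19 (median -0.12), cell cycle genes 4 and 1 of 10 (median 0.40), mitochondrially encoded genes 0 and 0 of 13 (median -0.18), T cell genes 0 and 10 of 19 (median -0.64). The T cell list was the one of these with the lowest median, and without other-lineage cells its median was -0.31, with 5 of 18 lower; within the Cd3-positive cells its median was -0.00052 in all and -0.23 in the remaining cells.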

How the data were processed

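One droplet library (10x Genomics 3' chemistry) per treatment was used, as deposited: per the submitters' processing notes the reads were processed with Cell Ranger 6.0.2 and the mm10 genome, and the deposited values are UMI counts for each of 32285 genes and each barcode, not normalized by the authors. Strand and multimapping settings are not given in the sources used here.

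From these counts, UMIs were summed over the gated cells of a library and expressed as CPM of that sum. With 1 library per group (pooled tumours of 3 mice), no replicate-based test was possible. Intervals at 95% were Clopper-Pearson for shares and conditional binomial for ratios, both exact and both covering counting error only. A gene with no UMI on 1 side enters list medians and calls at the bound that 3 counts on that side give, except under mean CPM. Called genes have at least 20 UMIs over both sums and a ratio of at least 1.5 or at most 0.667. Named genes have at least 50 CPM in 1 or both sums and UMIs in at least 5 cells of the higher side, with no cell holding over 25% of them, and the ratio interval farthest from 1. Gate, immunoglobulin, T cell receptor, mitochondrial, ribosomal, haemoglobin and predicted genes were left out. The rule took 10 genes in each direction for all cells, for Cd3-negative cells and for the Cd3 split (9 higher genes met it), 6 for Cd3-positive cells and 12 against other lymphocytes. In the split and against lymphocytes both libraries had to point the same way. Other genes named are members of the lists.

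Alternatives were stricter filters and gates, removal of the highest Scrublet scores, thinning to 2000 UMIs, mean CPM over cells, removal of each gene's highest cell, median centring and other UMI minimums. Removal of cells with at least 10 UMIs of 35 other-lineage genes was added after seeing the data. Python 3.11.15, scanpy 1.11.5 and scipy 1.17.1 were used, and the ratio code was tested on simulated data. The cells, lists and named genes were chosen with earlier results of these data known, so none is an independent choice.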

Additional observations from a re-analysis of the deposited data

Results flagged for a closer look

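For 4 measures the treatment difference ran in opposite directions in Cd3-negative and Cd3-positive cells, all as log2 ratios of Momordicine-I over vehicle, and none of these differences was tested. The median of the cell cycle list was 2.35 in Cd3-negative and -0.86 in Cd3-positive cells, over 7 measured genes each. The Cd3-negative value was -0.13 on 1 gene after thinning, and the Cd3-positive value was 0.41 on 2 genes without other-lineage cells. Mki67, a proliferation marker, had 32 UMIs in Cd3-negative cells with Momordicine-I, 24 of them in 1 cell, and 0 with vehicle, whereas Top2a, another, was found in 4 of 23 and 7 of 27 of these cells. Hdc was -3.64 in Cd3-negative and 0.63 in Cd3-positive cells. The Cd3-positive Hdc value was -0.57 without other-lineage cells and -0.32 with at most 5% mitochondrial UMIs, so both sets then had the same sign. Il5 was -1.98 in Cd3-negative and 0.85 in Cd3-positive cells, and in both sets 1 cell held most of the higher side. Il7r was -1.24 in Cd3-negative and 0.64 in Cd3-positive cells.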

How the results depend on the processing

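The share ratios kept their direction and moved by less than their counting interval under every alternative run. Over barcodes with at most 1% neutrophil-gene UMIs the Cd3-positive interval came to include 1. No paired analysis was possible because each group has 1 library. Counts of called genes depended on the UMI minimum: over all cells, 880 higher and 904 lower genes became 356 and 325 at 50 UMIs, 3446 and 3027 at 1 UMI, and 260 and 273 after thinning. Mean CPM gave 1409 higher, and removal of other-lineage cells 591 lower. In Cd3-negative cells 1099 higher and 604 lower became 362 and 222, 3435 and 4369, 136 and 106, and 401 and 274 without other-lineage cells; a gate of 3 UMIs gave 604 higher. In Cd3-positive cells 646 higher and 1066 lower became 202 and 338, 3898 and 3207, and 151 and 185. Mean CPM gave 982 higher; 5% mitochondrial UMIs, 2 Cd3 UMIs and removal of other-lineage cells gave 691, 682 and 515 lower. Between Cd3 sets with Momordicine-I, 1080 higher and 769 lower became 393 and 287 at 50 UMIs, 136 and 132 thinned, and 448 and 510 without other-lineage cells; with vehicle 716 and 1272 became 247 and 455, 157 and 266, and 450 and 700. Fewer UMIs or cells leave fewer genes tested. At the minimum of 1 UMI, a gene with fewer than 3 UMIs on 1 side and 0 on the other can be called in the wrong direction. This is because the empty side is set to 3 counts. The counts at 1 UMI include such calls and do not give the numbers of genes truly higher and lower. Reversed log2 ratios without other-lineage cells were, over all cells, H2-Eb1 -0.68, Ms4a6c -0.28 and Ahr -0.066. In Cd3-negative cells they were the ILC2 identity list 0.30, interferon list -0.41, MHC class I list 0.015, Rora 0.46 and Il2ra 0.16, and in Cd3-positive cells the cell cycle list 0.41, Psap 0.15 and Hdc -0.57. Thinning reversed the cytokine receptor list (0.12), interferon list (-0.37), cell cycle list (-0.13) and Rora (0.41) in Cd3-negative cells. Grn in Cd3-negative cells (-0.37) and Csf2 in Cd3-positive cells (0.11) changed sign after thinning only through the 3 counts set for an empty side. Thinned Grn had 2 UMIs with Momordicine-I and 0 with vehicle, and thinned Csf2 had 0 and 4. Mean CPM reversed the Cd3-negative interferon list (-0.50) and Rora (0.21), and 50 UMIs that list (-0.58). Removing each gene's highest cell reversed that list (-0.12) and Il5 (0.98) in Cd3-negative cells and Il5 (-0.48) in Cd3-positive cells. With 5% mitochondrial UMIs Calca (-2.17) and Hdc (-0.32) reversed in Cd3-positive cells. Between Cd3 sets, Icos (0.44) and Il2ra (0.38) reversed with Momordicine-I without other-lineage cells, and Il2ra (0.24) after thinning; with vehicle, Med13l (-1.17) reversed after thinning, and Il5 (-1.82) and Csf2 (-1.17) without the highest cell. The causes were not tested. Of the other values, 1662 were labelled as staying near their main value and 311 as moved. Reversals were listed only for main values past the ratio cut used for called genes. A value nearer to no difference could therefore change sign under either of the other labels. Rora over all gated cells did so without other-lineage cells. The 1662 are thus not a count of values that kept their direction. With 50 Cd3-negative cells in all, 1 cell can set the sum of a low gene, and the spread between mice is unknown.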
